A study of Caenorhabditis elegans with 4 samples.

Results

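Chromosome IV of *Caenorhabditis elegans* carries 2 domains that hold most of the worm's piRNA genes, and the 3 stretches of the chromosome outside them are described here by their RNA polymerase II regions. A region belonged to the left stretch when its midpoint lay below position 4500000 (4.5 Mb), to the central stretch between 7000000 and 13500000, and to the right stretch above 17200000, counted in bp of WormBase release WS180. By this rule 996 regions were members, of 1313 on chromosome IV and 8121 in all: 490 in the left stretch, 494 in the central and 12 in the right. Position alone chose them. The list was used without genes of its own build, so the borders of the piRNA domains were not checked against piRNA genes, and no region was assigned to a gene.

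The regions came from chromatin immunoprecipitation and sequencing (ChIP-seq), in which DNA crosslinked to a protein is pulled down with an antibody and sequenced. All 4 libraries were from wild-type hermaphrodite worms of strain N2, the standard laboratory strain, at the early embryo stage, grown in liquid culture at 20 degrees Celsius and fixed with 2% formaldehyde. For the 2 ChIP libraries the label names the mouse monoclonal antibody 8WG16, which binds the repeated tail of the enzyme's largest subunit. DNA that was not immunoprecipitated gave 2 input libraries as the background. The shared protocol text speaks of an anti-GFP serum, and the antibody field of the ChIP libraries was followed. Whole embryos were lysed, so polymerase in fewer cells and less polymerase per cell cannot be told apart.

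Polymerase II transcribes all protein-coding genes and many small RNA genes of the worm, among them the piRNA genes, which are short, carry their own promoters and are active in the germ line. In ChIP-seq it typically marks promoters and the bodies of active genes. On the autosomes of *C. elegans* the centres are known for low recombination and many conserved, widely expressed genes, and the arms for high recombination, repeats and younger genes. Many worm genes lie in operons, in which 1 promoter serves several genes in a row.

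The deposited data were 1 combined list of regions that passed the authors' test of ChIP against input. Of 18572 tested regions, a total recovered from the q-values, 44.0% passed at a q-value under 0.01. All members passed by construction, so nothing is read from their passing. The depth of the libraries is unknown. ChIP and input reads of single regions were recovered from the q-values for 993 of the 996 members, and ChIP and input together came to between 27 and 4861 reads per region (median 162). The fold of a region is the ratio of its ChIP to its input reads, the latter after any scaling by the authors. No value belongs to a single library, so nothing has a replicate error and no comparison was tested over samples. Intervals of a median or a share cover the spread over regions, which are not independent, and intervals of a fold cover counting error at most.

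On chromosome IV the left stretch held the regions at the highest density. It had 112 regions per Mb over 4.39 Mb, against 76.0 per Mb over the 6.50 Mb of the central stretch and 46.0 per Mb over the 0.261 Mb of the right stretch. The 2 piRNA domains had 54.8 and 48.6 per Mb. Thus the left and central stretches were both denser than either piRNA domain, and the right stretch was not. Over whole chromosomes, the other autosomes ran from 64.7 regions per Mb on chromosome V to 129 on chromosome I, with 118 on chromosome III. The left and central stretches both lay within that range.

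In 500 kb bins the left stretch was the more even. Its 9 bins held between 45 and 68 regions, with a median of 56. The first of them, with 47 regions, starts at position 1, before the first listed base at 109207. The 13 central bins ran from 17 regions, in the bin from 10500001 to 11000000, to 74 in the bin from 13000001 to 13500000, with a median of 35. Ranges of the left and central bins overlapped. The 5 and 7 bins of the piRNA domains held at most 35 and 30 regions, fewer than any left bin. Their medians were 28 and 29, and their ranges overlapped that of the central bins.

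By covered length the left and central stretches were close. Regions covered 79.8 kb per Mb in the left stretch and 81.5 kb per Mb in the central stretch, a ratio of left to central of 0.979 against 1.47 for the number of regions. In the right stretch 54.2 kb per Mb was covered, and in the piRNA domains 67.0 and 54.2 kb per Mb. For comparison, the other autosomes ran from 66.1 kb per Mb on chromosome V to 92.2 on chromosome III.

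**Figure D1:**
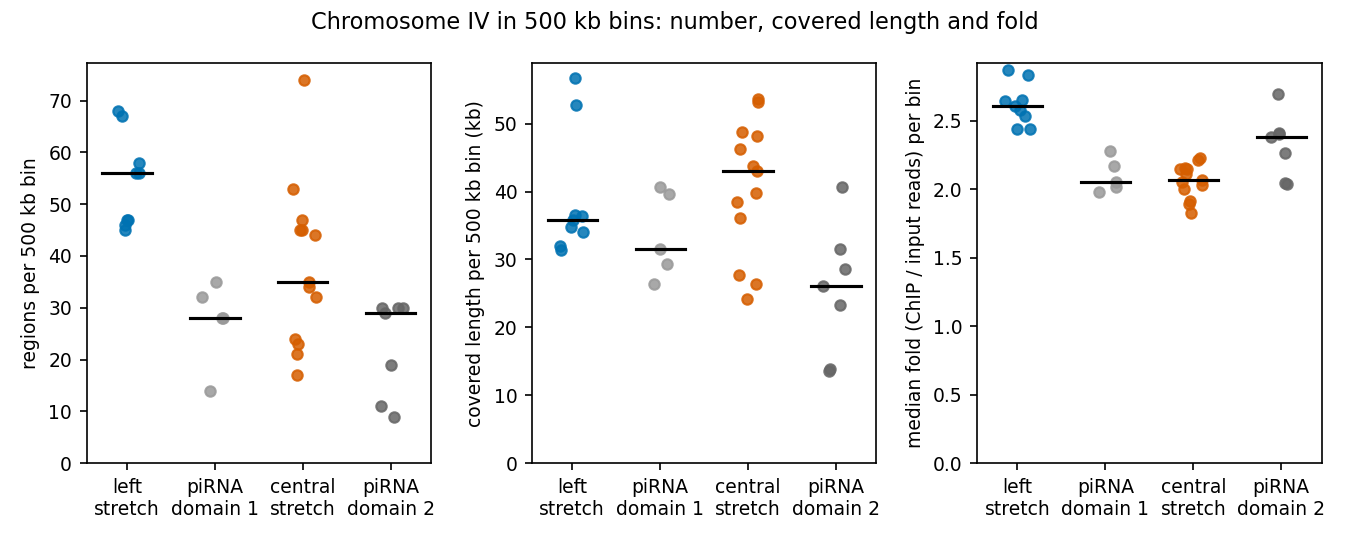
Number of regions, covered length in kb and median fold of ChIP over input reads in 500 kb bins of chromosome IV (1 point a bin, bar: median over bins). The left bins start at position 1, so the first includes bases before the first listed base at 109207. The right stretch is too short for a bin. The 9 left bins held 45 to 68 regions and had median folds of 2.44 to 2.87, above all 13 central bins, whose median folds ran from 1.83 to 2.23.

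The left stretch reached this coverage with more and narrower regions. Its median width was 428 bp (95% interval 396 to 487 bp), against 613 bp (552 to 701 bp) in the central stretch, and the intervals did not overlap. In the right stretch the median of the 12 widths was 798.5 bp (192 to 2064 bp). The quartiles were 194 and 869 bp in the left stretch and 299 and 1222 bp in the central. Over whole chromosomes, the other autosomes had median widths from 416 bp (chromosome I) to 615 bp (chromosome V), a range that took in the left and central medians.

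Both ends of the width range differed between these stretches. Regions under 200 bp made up 26.9% of the left stretch (95% Clopper-Pearson interval 23.1 to 31.1%) and 14.8% of the central (11.8 to 18.2%). Regions of 3 kb or more made up 2.24% of the left stretch (1.13 to 3.98%) and 8.10% of the central (5.85 to 10.9%). Such wide regions numbered 11 and 40. They held 17.5% of the covered length in the left stretch and 35.8% in the central stretch. Over the whole list 21.7% of regions were under 200 bp and 5.68% were of 3 kb or more. Both piRNA domains together had 15.8% and 8.83%, near the central shares. At the narrow end, 28 members were under 20 bp wide, 14 in each of the left and central stretches. The lowest fold among these 28 was 2.64.

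Fold was higher in the left stretch than in the central stretch. The median was 2.61 in the left stretch (95% interval 2.53 to 2.69, n = 488 regions), 2.07 in the central (2.03 to 2.14, n = 493) and 2.29 in the right (1.53 to 3.09, n = 12). Over the 500 kb bins the median fold ran from 2.44 to 2.87 in the left stretch and from 1.83 to 2.23 in the central stretch, so that the lowest left bin exceeded the highest central bin. In the first piRNA domain, which lies between them, the bins ran from 1.98 to 2.28 and thus overlapped the central range and none of the left range. Bins of the second piRNA domain ran from 2.04 to 2.70. Over whole chromosomes, the other autosomes had median folds from 2.41 (chromosome III) to 2.52 (chromosome I), below the left median and above the central.

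Strong enrichment was counted as a fold of 4 or more, which 11.5% of all listed regions with read numbers reached. In the left stretch 84 of 488 regions did, or 17.21% (14.0 to 20.9%), and in the central stretch 25 of 493, or 5.07% (3.31 to 7.40%). The right stretch had 1 of 12. Together the members stood at 11.1%, near the share of the whole list, so that the left stretch lay above it and the central stretch below. Regions under 200 bp, 26.9% of the left stretch and 14.8% of the central, had the highest median fold of the width classes in both, at 3.18 and 2.64. The share at a fold of 4 or more was not compared at like width or like reads, so it partly follows the number of narrow regions.

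Regions with few reads reach the list only at a high fold, and left regions had fewer reads, with a median of 129 against 200 in the central stretch. With 50 reads in all, the smallest fold that could be listed was 2.33, with 200 reads it was 1.47, and with 1000 reads 1.18. The median folds of the stretches were therefore also compared at like width and like reads. At 500 to 999 bp the median fold was 2.44 in the left stretch (2.31 to 2.66, n = 114) and 1.93 in the central (1.86 to 2.05, n = 132). The left median was higher in each of the 5 width classes, and the intervals overlapped only in the class of 3 kb or more, where the left stretch had 11 regions. Under 100 reads the medians were 2.94 (2.78 to 3.19) and 2.40 (2.25 to 2.58). From 200 to 399 reads they were 2.40 (2.22 to 2.61) and 1.92 (1.83 to 2.05). With 400 reads or more the left median of 2.65 (2.19 to 3.19) and the central median of 2.18 (2.06 to 2.38) had overlapping intervals.

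**Figure D2:**
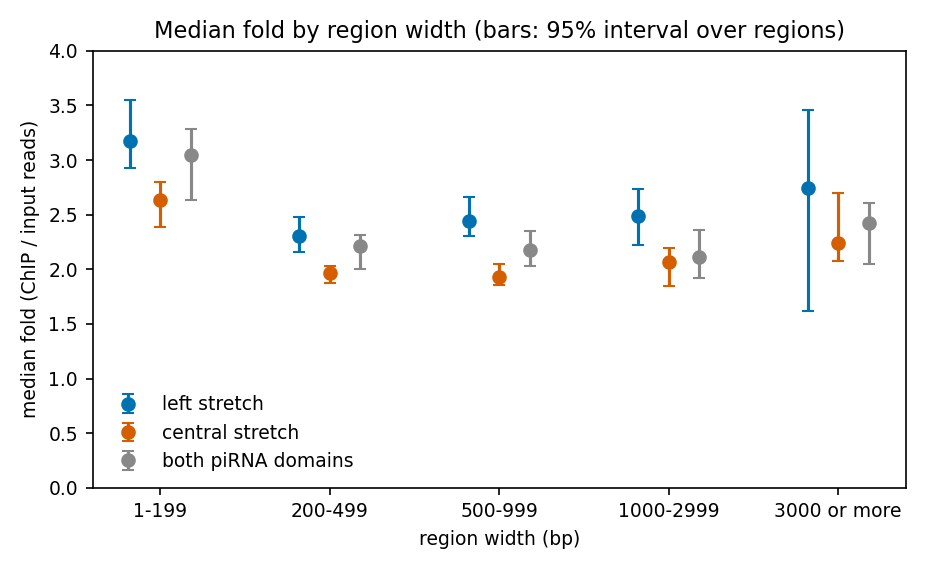
Median fold of ChIP over input reads in 5 classes of region width, for the left stretch, the central stretch and both piRNA domains; bars are 95% order-statistic intervals over regions. At 500 to 999 bp the left median of 2.44 stood above the central median of 1.93, and the same order held in every class, with overlapping intervals at 3 kb or more.

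In all 5 width classes the central stretch had more input reads per kb than the left, and in 4 of them also more ChIP reads per kb. In regions of 1000 to 2999 bp, the left stretch had 207 ChIP and 82.3 input reads per kb, and the central stretch had 230 ChIP and 108 input reads per kb. At 3 kb or more the ChIP reads went the other way, with 270 per kb in the left regions that had read numbers and 259 in the 40 central regions, beside 105 and 110 input reads per kb. For regions of 1000 to 2999 bp the ratio of left to central was 0.902 for ChIP reads and 0.764 for input reads. Among regions of 500 bp or more, the 500 kb bins of the left stretch held 72.1 to 100.5 input reads per kb (median 87.2), and the central bins 95.1 to 123 (median 109). ChIP reads per kb overlapped more broadly, from 173 to 255 in the left bins (median 214) and from 195 to 283 in the central bins (median 235). Only regions that passed the test are listed, and any scaling of the input by the authors is unknown. The part of input depth in the difference in fold was not tested.

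**Figure D3:**
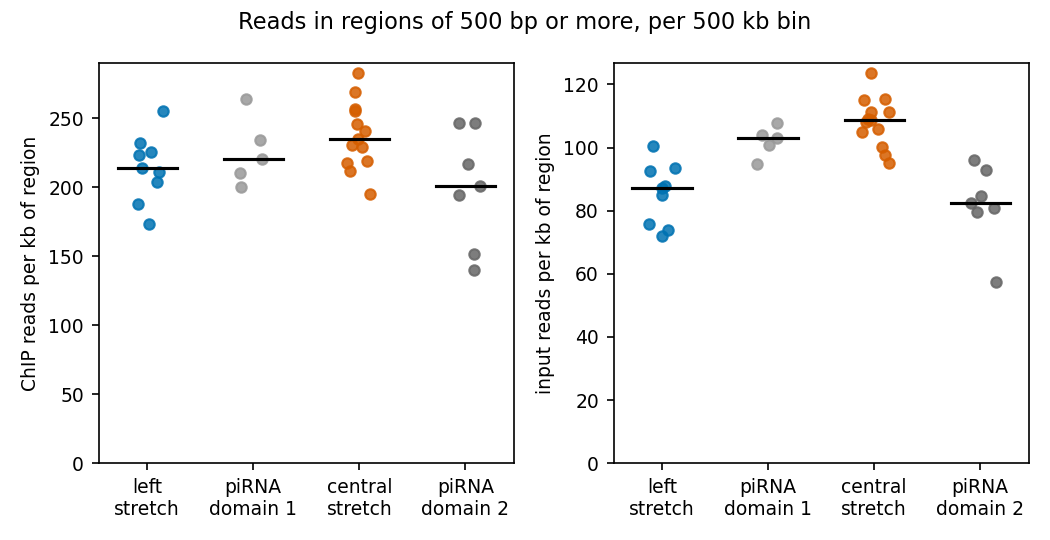
ChIP reads (left panel) and input reads (right panel) per kb of region, summed over regions of 500 bp or more in the same 500 kb bins of chromosome IV as for the number of regions (bar: median over bins). Central bins had a median of 109 input reads per kb against 87.2 in the left stretch, while the ChIP medians were 235 and 214.

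For width, fold and input reads the same order of middle and ends was seen on the other chromosomes. Each of the 5 was divided into 3 equal parts, and the median width of the middle part was higher than that of the outer parts on 5 of 5. The median fold was lower in the middle on 5 of 5, and the input reads per kb in regions of 1000 to 2999 bp were higher there on 5 of 5. Chromosome III, for example, had a median fold of 2.11 in the middle and 2.62 outside, with 118 and 89.7 input reads per kb. ChIP reads per kb were higher in the middle on 4 of 5. On the X chromosome the median folds were close, at 1.75 in the middle and 1.85 outside. The contrast in width, fold and input reads between the left and central stretches is thus not particular to chromosome IV. Covered length per Mb was higher in the middle on chromosomes I, II, III and V, and nearly equal on X (45.5 kb in the middle against 45.3 outside). Density was less alike. Regions per Mb were lower in the middle on chromosomes I, II, III and X, by little on II (92.6 against 97.0), and higher on V (69.5 against 62.3).

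By q-value the left and central stretches were close at the median and differed at the top of the list. The median −log10 q was 4.78 in the left stretch (95% interval 4.39 to 5.41), 4.51 in the central (4.11 to 5.17) and 2.80 in the right (2.60 to 17.1), with overlapping intervals. Of the strongest 10% of the whole list, the left stretch held 32 regions, or 6.53% of its own (4.51 to 9.09%), and the central stretch held 63, or 12.8% of its own (9.94 to 16.02%). A wide region collects more reads and so a smaller q-value at the same fold. Across regions the rank correlation of width with −log10 q was 0.72 in both stretches, while that of width with fold was −0.27 in the left stretch and −0.17 in the central stretch (Spearman's rho over 488 and 493 regions, which share their libraries and the limit on q).

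Among the stretches outside the piRNA domains, neighbouring regions lay closest in the left. The median distance to the next region was 1166 bp in the left stretch, with quartiles of 440 and 5570 bp, and 2381 bp in the central stretch, with quartiles of 537 and 13561 bp. In the right stretch the median of 11 distances was 2430 bp. Distances under 1000 bp made up 46.4% in the left stretch (41.9 to 51.0%) and 35.1% in the central (30.9 to 39.5%). Spacing in the second piRNA domain was as close as in the left stretch, with a median of 1019 bp and 48.6% under 1000 bp. The first domain had 2484.5 bp and 33.8%, and chromosome V had 1156.5 bp and 46.6%. No distance between members was under 201 bp, a floor shared with the whole list, whose smallest distance was 200 bp.

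Regions under 1000 bp apart were joined into runs. Runs took in 340 left regions, or 69.4%, and 283 central regions, or 57.3%. In the first and second piRNA domain they took in 51.8% and 71.1% of the regions. After joining, 263 loci remained in the left stretch and 321 in the central, or 59.9 and 49.4 per Mb, so that part of the higher left density lay in close neighbours. Runs of 5 or more regions numbered 15 and 8.

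Open stretches also occurred. The longest distance without a region was 155 kb in the left stretch, from 2023887 to 2179002, and 149 kb in the central stretch, from 12860513 to 13009612. The latter ended inside the window from 13000001 to 13100000, which was 1 of 3 central 100 kb windows that shared the highest number, 18 regions. The others were from 13200001 to 13300000 and from 13400001 to 13500000. The densest left window, from 2600001 to 2700000, had 27 regions that covered 17.1 kb. Of the 100 kb windows, 2 of 44 in the left stretch and 1 of 65 in the central stretch were empty, against 1 of 25 in the first piRNA domain and 8 of 37 in the second.

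**Figure D4:**
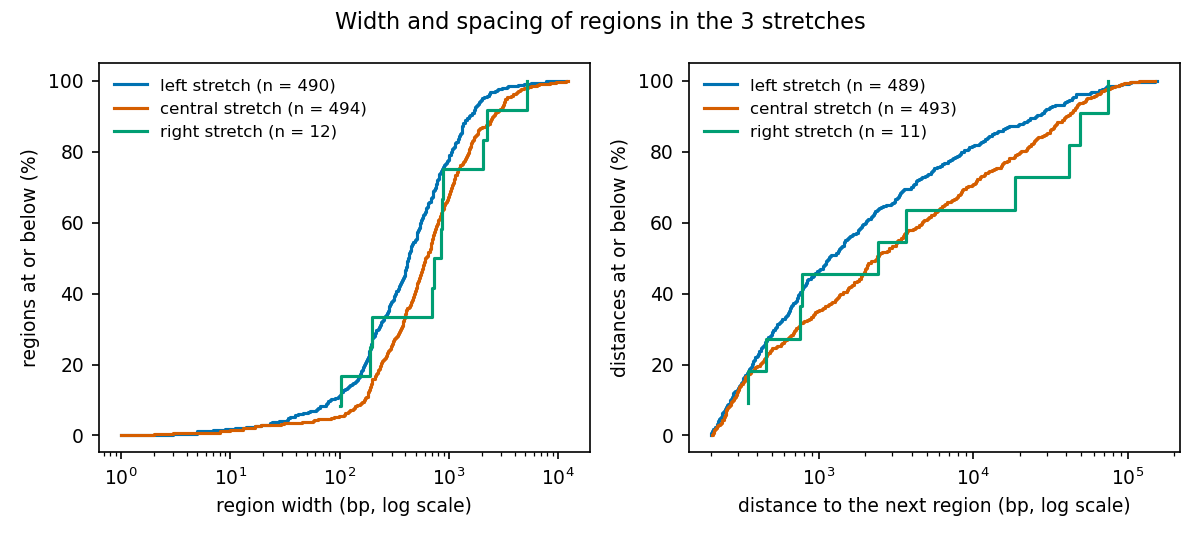
Cumulative share of regions by width (left panel, log scale) and of distances to the next region (right panel, log scale) in the left, central and right stretches. The left medians are the lower in both panels, at 428 against 613 bp for width and 1166 against 2381 bp for distance, and the longest distances are alike at 155 and 149 kb.

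The 4 borders were compared at 2 reaches, 250 kb and 1 Mb on each side. Over 1 Mb on each side of 4.5 Mb, the left stretch had 92 regions at a median fold of 2.65 (2.41 to 3.01) and the piRNA domain had 60 at 2.13 (1.98 to 2.40). Within 250 kb of this border there were 27 and 23 regions, and the medians were 2.64 (2.07 to 3.39) and 2.00 (1.86 to 2.46), with overlapping intervals. At 7.0 Mb, 1 Mb of the domain held 42 regions at a median fold of 2.04 (1.93 to 2.31), and the next 1 Mb of the central stretch held 68 at 2.16 (2.07 to 2.25). Within 250 kb of it the numbers were close, with 17 regions in the domain and 16 in the central stretch. At 13500000 there were 45 regions in the last 250 kb of the central stretch and 7 in the first 250 kb of the second domain, while over 1 Mb on each side the numbers were 108 and 59. At 17200000 there were 23 regions in the last 250 kb of the second domain and 10 in the first 250 kb of the right stretch. The whole right stretch had 46.0 regions per Mb, against 54 in the 1 Mb before it.

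The regions nearest to each border were as follows. At 4.5 Mb the last left member, from 4472369 to 4474278, had a fold of 1.79 (1.49 to 2.15), and the first region outside, from 4510535 to 4511637, had 1.98 (1.53 to 2.57). At 7.0 Mb the first central member, from 7016839 to 7017144, had a fold of 2.20 and the last region outside, from 6982676 to 6983064, had 2.31. The midpoint of the last central member, from 13499725 to 13499862 with a fold of 4.10 (2.02 to 9.18), lay only 0.207 kb from the border. Its neighbour outside, from 13500370 to 13500579, had a fold of 2.52 (1.53 to 4.28). At 17200000 the first member was 54.4 kb from the border at a fold of 3.09, and the region outside, from 17196808 to 17196947, had 2.22.

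The list starts at rank 48, and any of the 47 stronger ranks that it lacks may lie on chromosome IV, so first and strongest mean first among the listed regions. The strongest left regions by q-value were mostly several kb wide. The first, from 1908077 to 1919803, was 11.7 kb wide at q = 1.90e-298. Its q-value corresponded to a p of 5e-301 with 1 digit, from which no read numbers could be recovered. The second, from 3229913 to 3235015, had 2470 ChIP reads against 571 of input (fold 4.33, 3.95 to 4.75), with 4 weaker regions within 5 kb before it at folds between 1.93 and 3.19. The third, from 3335955 to 3338923, had 1162 against 262 (fold 4.44, 3.88 to 5.09).

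The next left regions by q-value had folds between 2.63 and 9.06. The region from 4445428 to 4448928 had 1356 ChIP against 392 input reads (3.46, 3.09 to 3.88). That from 561529 to 567182 held 1591 and 605 (2.63, 2.39 to 2.89). Between them in q-value stood a region of 1789 bp, from 3525278 to 3527066, with 571 ChIP and 63 input reads. Its fold of 9.06 (6.98 to 11.95) was 1 of the 2 highest named in the left stretch, although 2 neighbours within 300 bp, of 2096 and 395 bp, had folds of only 2.41 (2.04 to 2.86) and 2.02 (1.42 to 2.92).

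That region of 1789 bp had the highest lower 95% limit of fold in the left stretch, and compact regions took the next 2 places. The region from 991165 to 991774, of 610 bp, had 309 ChIP against 33 input reads (9.36, 6.53 to 13.8). That from 1085974 to 1086490, of 517 bp, held 144 and 21 (6.86, 4.32 to 11.4). The second widest left region was of the opposite kind, with 7.78 kb from 3037860 to 3045635 at 1594 ChIP and 1023 input reads and a fold of 1.56 (1.44 to 1.69). Since the named regions were chosen separately by q-value, width and fold, this contrast is partly built into their choice.

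In the central stretch the first region by q-value was much narrower than those after it. It spanned 2401 bp from 11405480 to 11407880 at q = 3.71e-296, again without recoverable read numbers. The second, from 8771941 to 8778299, had 2334 ChIP against 482 input reads (fold 4.84, 4.39 to 5.35), and 6 other regions lay within 5 kb of it. The nearest of these, from 8770764 to 8771554, had a like fold of 4.5 (3.37 to 6.09), and the others had between 2.04 and 4.

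The next central regions were wide and of lower fold. The region from 11596265 to 11604507 had 2491 ChIP against 870 input reads (2.86, 2.65 to 3.10), and that from 12084356 to 12089276 held 1571 and 465 (3.38, 3.04 to 3.75). The widest 2 of the stretch were both over 11 kb. They lay from 7132739 to 7144608, at a fold of 2.35 (2.21 to 2.50), and from 10667964 to 10680190, at 1.99 (1.87 to 2.11). The latter stood alone, with 47.2 kb before it and 41.8 kb after it free of regions.

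The 3 central regions whose fold had the highest lower 95% limit were of about 1 kb or less. The region from 11400075 to 11400489, of 415 bp, had 177 ChIP against 17 input reads (10.4, 6.32 to 18.3). It lay less than 5 kb before the strongest central region, with a region of 1512 bp at a fold of 3.91 (3.22 to 4.79) between them. The region from 11324765 to 11325214 held 134 and 14 reads (9.57, 5.51 to 17.98), and that from 11578803 to 11579863 held 387 and 63 (6.14, 4.70 to 8.15). With the 2 strong regions named above, 5 of the 9 named central regions lay in 280 kb, from 11324765 to 11604507.

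**Figure D5:**
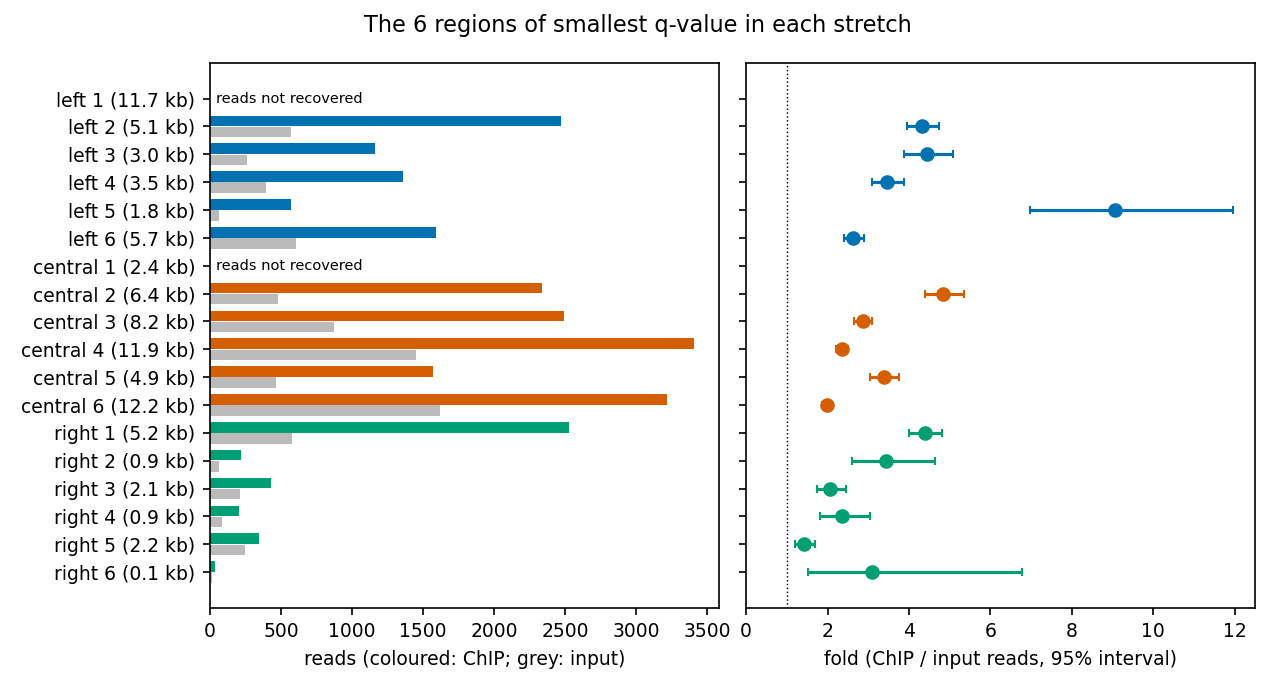
ChIP reads (coloured bars), input reads (grey bars) and fold with its 95% counting interval for the 6 regions of smallest q-value in each stretch, numbered by q-value, with the width in kb. The left region of 1.8 kb stands apart at a fold of 9.06, the 2 widest central regions have folds of 2.35 and 1.99, and in the right stretch the first region holds 2529 ChIP reads against 34 to 429 in the next 5.

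By covered length and summed reads, the right stretch rested largely on 1 region. The region from 17276929 to 17282131, 5.20 kb wide, held 2529 of the 4311 ChIP reads of the stretch and 576 of its 1526 input reads, so that its fold was 4.39 (4.01 to 4.81). It stood alone, with 18.7 kb before it and 49.1 kb after it free of regions. Without it the stretch had 34.3 kb covered per Mb in place of 54.2, and the ratio of its summed ChIP to input reads was 1.88 in place of 2.83. The median fold changed little, at 2.23 in place of 2.29. Among the other 11, the most ChIP reads in a region were 429.

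The rest of the right stretch formed small groups. Nearest to the piRNA domain were 4 regions in 3.92 kb, from 17254334 to 17258253. The second of them, from 17255222 to 17256113, had 217 ChIP and 63 input reads (3.44, 2.59 to 4.64), and the others had folds of 3.09, 1.53 and 1.53. Past the strong region came a pair from 17331211 to 17334590, whose larger member had 429 and 208 reads (2.06, 1.74 to 2.45) and whose smaller member had a fold of 1.45.

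Then 3 regions of 102, 200 and 192 bp followed, with 33 to 49 ChIP reads and folds of 2.36, 2.23 and 2.37. After a distance of 74.2 kb the last 2 regions of the chromosome lay 758 bp apart. They spanned 17456854 to 17457717, with a fold of 2.34 (1.82 to 3.05), and 17458476 to 17460694, with 1.42 (1.20 to 1.68). The lower limits of all 12 folds were above 1, which passing the test at its limit on q already requires.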

How the data were processed

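The authors deposited 1 combined list of regions for 2 ChIP and 2 input libraries. Coordinates are in WormBase WS180 and the caller was PeakSeq, per the file headers and the source field of each line. The deposited value of a region is a q-value, and other deposited numbers are its first and last base. For the mapper, the settings and the pooling of replicates, nothing is stated in the sources used.

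Read numbers were recovered from the q-values. Ties between neighbours gave the rank of each line (2665 pairs), which began at 48, so that 47 ranks, all stronger than the first listed region and of unknown position, were not analysed here. A total of 18572 tested regions turned q-values into exact upper binomial tails of probability 0.5 within 1e-09 in ln p, and 8116 of 8121 regions matched 1 pair of read numbers. In a simulated list of 5434 regions, the steps returned the right pair for 99.9%. Of the members, 2 matched no pair and 1 matched 2 pairs.

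Ends of chromosome IV were taken as the first and last listed base. Medians have order-statistic intervals and shares have Clopper-Pearson intervals, at 95%. Named regions were, in each stretch, the 6 of smallest q-value, the 2 widest, the 3 with the highest lower limit of the fold among those with 30 reads or more, the longest distance, the densest 100 kb window and the regions nearest to a border. The stretches and this rule were chosen with earlier results of these data known. The width and read classes, the input reads per kb, the comparison across each border, the runs, the split of other chromosomes and the neighbours of named regions were added after the data were seen. No test was run, since no column belongs to a library. Python 3.11.15, numpy 2.4.6, scipy 1.17.1 and pandas 2.3.3 were used.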

Additional observations from a re-analysis of the deposited data

How the results depend on the processing

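Of 75 values under 25 alternatives, 50 moved within their interval or by less than 1.5 times and 25 moved by more. In the stronger 50% of the list, regions per Mb were 53.3 in the left stretch, 34.6 in the central and 15.3 in the right, and the right stretch had 34.6 kb covered per Mb. In that set the median widths were 828 bp (left) and 1212 bp (central), the median folds 2.90 and 2.28, and the shares of distances under 1000 bp 30.04% (left), 18.8% (central) and 0% (right). That set holds fewer regions, which lowers any density. When regions under 1000 bp apart were merged, there were 59.9, 49.4 and 26.9 loci per Mb in the left, central and right stretches, with median widths of 1058, 1020 and 3380 bp. Here the left loci were not narrower than the central. With regions of 200 bp or more the median folds were 2.41 (left) and 2.00 (central). Distances under 500 bp made up 28.8% (left) and 24.1% (central), and those under 2000 bp 59.7% and 46.5%. Borders moved by 0.25 Mb to shrink the stretches left 2 regions in the right one, at 187 regions and 288 kb per Mb. Enlarging them put covered length at 79.6 kb per Mb (left) and 78.9 (central), which turned their order.

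The order of the left and central stretch held under 8 of 8 alternatives for density, 2 of 2 for fold, 3 of 3 for spacing, 3 of 3 for −log10 q, 4 of 5 for width and 3 of 4 for covered length. Some of these could not change it. No region crossed a border, so counting regions or bases wholly inside, or all regions overlapping a stretch, gave the main values again. These stand among the 50 kept values. Covered length in the stronger 50% of the list was nearly tied, at 62.43 (left) and 62.45 kb per Mb (central). No paired analysis was possible because ChIP and input replicates enter 1 pooled list, which also keeps any replicate from being left out. The list omits whatever failed at a q-value of 0.01, and no count includes the 47 ranks above its first line. The right stretch, with 12 regions, carries wide intervals throughout.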

Other observations

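Some loci of the left and central stretches were broken into many regions. These were chosen after their values were seen, as the runs of most regions less than 1000 bp apart. The longest left run spanned 14.5 kb from 3109740 to 3124202 in 12 regions of 140 to 2347 bp. It held 1993 ChIP and 927 input reads in all, with folds between 1.67 and 3.90. A second left run, from 1085221 to 1094354, had 9 regions of 35 to 1205 bp with folds between 1.73 and 6.86, and contains the compact region from 1085974 to 1086490. In the central stretch a run of 8 regions lay from 12819482 to 12829991, with folds between 1.46 and 4.95, and a run of 7 from 8075933 to 8086256, with folds between 1.45 and 3.15. Whether such a run is 1 broken stretch of polymerase or several sites was not tested.

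The 280 kb of the central stretch from 11324765 to 11604507 held 33 regions at 118 per Mb, against 76.0 per Mb in the whole stretch, and 5 of its 25 regions with a fold of 4 or more. It was picked for its named regions, so these counts describe it and are no test. The member from 3505693 to 3506331 in the left stretch matched 2 pairs of read numbers, 220 ChIP with 51 input reads and 222 with 52, which give folds of 4.31 and 4.27. It was left out of every median of fold.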
